A study of Mus musculus with 12 samples.

Results

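The unfolded protein response (UPR) was examined through 10 genes in haematopoietic stem cells (HSCs) of WT and Pon2-/- mice. These were the endoplasmic reticulum (ER) chaperones Hspa5, Hsp90b1 and Calr, the ER co-chaperone Dnajb9, the sensors Ern1, Eif2ak3 and Atf6, and the transcription factors Xbp1, Atf4 and Ddit3. They were taken by name from the 49585 genes that were counted, with earlier results of these data known. All 10 passed the filter on low counts and so belonged to the 11848 genes that were tested. RNA-seq was made for HSCs from the bone marrow of 6 WT and 6 Pon2-/- mice, sorted as Lin-, Sca1+, ckit+, CD135- and CD150+ cells, a gate that the study describes as LT-HSCs together with MPP2 cells. Both genotypes had the C57BL/6J background, were young (10 to 14 weeks) and were not treated. The WT mice came from Charles River, and the Pon2-/- mice carried a gene trap with a β-geo reporter between loxP sites in an intron of Pon2. From each mouse, 8 wells of 10 cells were sorted, and each sample holds the counts of 1 mouse.

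When unfolded proteins accumulate in the ER, 3 membrane proteins report it to the rest of the cell. IRE1α (encoded by Ern1) cuts the mRNA of Xbp1 so that a longer and active transcription factor is made. PERK (Eif2ak3) slows translation and favours the synthesis of ATF4, which in turn switches on CHOP (Ddit3), a factor linked to cell death under lasting stress. ATF6 travels to the Golgi and is cut there, which releases its transcription factor part. These routes raise the chaperones BiP (Hspa5), GRP94 (Hsp90b1) and calreticulin (Calr) and the BiP helper ERdj4 (Dnajb9). HSCs are known for a low rate of protein synthesis and for their sensitivity to ER stress. PON2 is a membrane enzyme with antioxidant activity that resides in the ER, among other places, and the comparison asks whether its loss changes the mRNA of UPR genes in HSCs.

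The promoters of the chaperone genes carry a shared signature, which is shown because it ties these genes to ATF6 and XBP1. The ER stress element consists of the letters CCAAT and CCACG with 9 bases between them. It was searched on both strands in windows of 300 bases, from 250 bases upstream of each RefSeq start to 50 bases downstream (GRCm38.p6). It was found in 39 of 32851 windows (0.119%). Among the 9 UPR genes with a window, it was found in 3, which were Hspa5, Hsp90b1 and Calr. Atf6 had no entry. Each element is given below with 5 bases on each side, read in the direction of the element, with the matching letters in capitals.
Hspa5: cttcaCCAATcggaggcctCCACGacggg
Hsp90b1, distal: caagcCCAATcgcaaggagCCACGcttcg
Hsp90b1, proximal: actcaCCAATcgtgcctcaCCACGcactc
Calr: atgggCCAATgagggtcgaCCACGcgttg

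The element of Hspa5 lay at chr2:34772025-34772043, on the strand of the gene. It started 65 bases upstream of the RefSeq start, and this position falls inside the first exon of the gene in GENCODE release M21, which places the start further upstream. The elements of Hsp90b1 lay at chr10:86705638-86705656, on the strand of the gene, and at chr10:86705533-86705551, on the opposite strand. The element of Calr lay at chr8:84847075-84847093, on the opposite strand. Those of Hsp90b1 and Calr touched no annotated exon. The upstream stretch of Hsp90b1, on the minus strand at chr10:86705510-86705664, shows the 2 elements of this gene, here in the direction of the gene, so that the proximal one appears as its reverse complement.
Hsp90b1: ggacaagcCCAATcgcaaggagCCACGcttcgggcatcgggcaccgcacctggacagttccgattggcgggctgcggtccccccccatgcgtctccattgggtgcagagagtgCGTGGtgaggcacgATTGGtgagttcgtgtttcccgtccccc

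The same search found the element in 4 of the 15 windows of other ER folding genes (Canx, Pdia6, Dnajc3 and Creld2) and in 2 of the 14 windows of genes for ER-associated degradation (Syvn1 and Derl3). None of the 15 windows of ER translocation genes, the 20 of the ATF4 and CHOP branch and the 18 of the sensor regulators held it. A match describes the sequence and does not show binding.

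A second sequence bears on what counts per gene can show. IRE1α removes 26 bases from the mRNA of Xbp1, at chr11:5524279-5524304 on the plus strand (GRCm38), inside exon 4, a coding exon, of a GENCODE release M21 transcript. They are in capitals here, between the neighbouring coding bases.
Xbp1: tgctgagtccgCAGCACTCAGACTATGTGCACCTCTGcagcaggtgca

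Reads with and without these bases count for the same gene. The values of Xbp1 below are therefore totals of both forms, and the splicing of Xbp1 was not measured. The same holds for the cleavage of ATF6 and the phosphorylation of PERK and IRE1α, which take place on proteins.

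The 12 samples held between 12967791 and 24228280 counts on genes, with 13941 to 15656 genes detected. A value of 3 counts, taken as the floor, corresponded to 0.124 to 0.231 counts per 1000000 counts (CPM). Pon2 was between 56.4 and 202 CPM in the WT samples and between 1.16 and 33.1 CPM in the Pon2-/- samples, without overlap. Of 10 HSC markers, 10 were detected in all 12 samples, and their summed level ranged from 2560 to 3029 CPM in WT and from 2529 to 3043 CPM in Pon2-/- samples. Summed granulocyte and monocyte markers varied widely in both genotypes, from 878 to 11592 CPM in WT and from 830 to 17830 CPM in Pon2-/- samples. Pon2-/- replicate 3 stood apart by genes of plasma cells. It held 10894 CPM of the 10 plasma and B cell markers, among them 181116 counts of Ighm and 6276 counts of Jchain, which was at 0 in the other 11 samples. Of the 10 T cell markers, 5 had counts in some samples, and their summed level reached 49.2 CPM in WT and 61.5 CPM in Pon2-/- samples. The other T cell markers, Cd3e, Trac, Cd8a, Cd8b1 and Trbc2, were at 0 throughout.

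HSCs of both genotypes expressed the 10 UPR genes, and none of the 10 passed the test between genotypes. The fitted log2 fold changes of Hspa5, Hsp90b1, Calr and Atf4 lay between -0.23 and 0.09. Atf6 had close means of 33.2 CPM in WT and 34.4 CPM in Pon2-/- samples, but medians of 23.3 and 33.3 CPM. The means of Xbp1 and Ddit3 were lower in Pon2-/- samples without reaching the threshold. Genes were called by edgeR's quasi-likelihood test at a Benjamini-Hochberg adjusted p below 0.05 over all tested genes and an absolute log2 fold change above 1. Of all tested genes, 24 (0.203%) were called. The adjusted p of each of the 10 genes was 1.00 in this test. DESeq2 and limma voom called 0 of the 10 as well, beside 304 of 25444 fitted genes by DESeq2 and 23 of 11848 by voom. At an unadjusted p below 0.05, where 371 tested genes (3.13%) stood, 1 of the 10 was found, Xbp1. In exact permutation tests of the mean log2 CPM over all relabellings of the mice, 696 tested genes (5.87%) had a p below 0.05, and 1 of the 10 did, Ddit3. The samples of both genotypes did not overlap for 75 tested genes (0.633%) and for 0 of the 10. The median log2 fold change of the 10 genes was -0.09, with 4 higher and 6 lower in Pon2-/- samples, beside -0.01 for all tested genes.

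**Figure D1:**
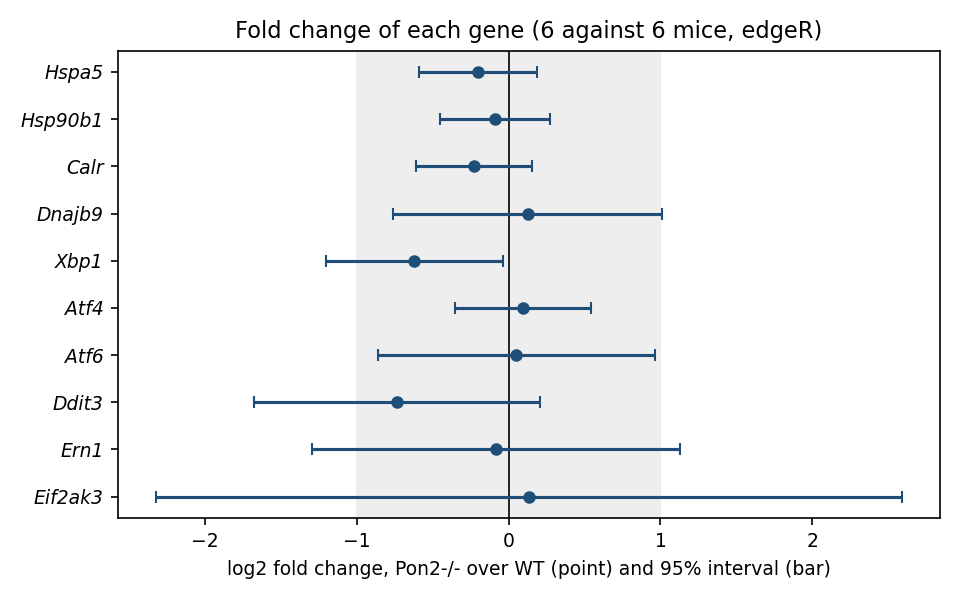
Log2 fold change of each of the 10 genes between 6 Pon2-/- and 6 WT mice (points) with its 95% interval (bars). The grey band spans changes below the threshold of 1 on the log2 scale, and 5 of the intervals, those of Hspa5, Hsp90b1, Calr, Atf4 and Atf6, end inside it.

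The size of the changes that these samples still allow differed strongly from gene to gene. The 95% interval of the fold change stayed inside the threshold of 1 on the log2 scale, in both directions, for 5 of the 10 genes and for 3027 of the tested genes (25.5%). For these 5 genes, a change beyond 2-fold lay outside the interval of this fit. The interval of Atf6 came nearest to the threshold, ending at 0.96. The standard error of Atf6 was 0.42 here and 0.55 with the replicate number as a block. For the other 5, Dnajb9, Xbp1, Ddit3, Ern1 and Eif2ak3, the interval reached past 1 in at least 1 direction, so a change of that size lay within it.

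The chaperones come first, as the classical targets of the response. Hspa5 encodes BiP, the HSP70 chaperone of the ER that also holds the 3 sensors inactive. Its lowest, median and highest values were 406, 518 and 736 CPM in WT samples. In Pon2-/- samples they were 339, 455 and 648 CPM. The ranges overlapped over most of their length, with WT replicate 3 at the top and Pon2-/- replicate 1 at the bottom. The means were 538 ± 127 CPM (SD, n = 6) and 468 ± 103 CPM (SD, n = 6), a log2 fold change of -0.20 with a standard error of 0.18 (95% interval -0.59 to 0.19; exact permutation p = 0.312).

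Hsp90b1 encodes GRP94, the HSP90 chaperone of the ER, on which integrins and Toll-like receptors depend. WT samples ran from 274 over a median of 365 to 429 CPM. Pon2-/- samples ran from 241 over a median of 309 to 457 CPM. Both the lowest and the highest sample of all were Pon2-/-, so that the WT range lay within the other. This gave a log2 fold change of -0.09 with a standard error of 0.17 (95% interval -0.46 to 0.27; exact permutation p = 0.515). Of the 4032 exon bases of Hsp90b1, 415 are shared with a pseudogene on the opposite strand, 1810014B01Rik, and Smart-seq2 libraries carry no strand. That gene held 4161 counts over the 12 samples, beside 75412 of Hsp90b1.

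Calr encodes calreticulin, a calcium-binding lectin chaperone for glycoproteins. It was measured at 314, 371 and 553 CPM (lowest, median and highest) in WT samples and at 253, 362 and 423 CPM in Pon2-/- samples. The medians were close, and WT replicates 5 and 6 lay above every Pon2-/- sample. Calr had a log2 fold change of -0.23 with a standard error of 0.18 (95% interval -0.61 to 0.15; exact permutation p = 0.262). Summed over Hspa5, Hsp90b1 and Calr, the samples held 1007 to 1508 CPM in WT and 974 to 1485 CPM in Pon2-/- mice.

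Dnajb9 encodes ERdj4, a co-chaperone of BiP that is raised through XBP1 and returns IRE1α to its inactive state. It was far more variable than the chaperones above. WT samples had 20.6, 94.3 and 148 CPM (lowest, median and highest) and Pon2-/- samples 43.3, 100.4 and 142 CPM. The highest and the lowest sample were both WT, replicate 3 and replicate 5. Between genotypes, the log2 fold change was 0.13 with a standard error of 0.41 (95% interval -0.76 to 1.01; exact permutation p = 0.608). The sign turned to -0.08 without WT replicate 5 and to -0.01 without Pon2-/- replicate 2.

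The sensors had the lowest levels per kilobase of exons, and Ern1 and Eif2ak3 the widest spread between samples among the 10 genes. Ern1, the gene of IRE1α, ranged from 5.77 to 98.9 CPM in WT samples, a 17.1-fold range, with a median of 53.3 CPM. In Pon2-/- samples it ranged from 18.7 to 70.4 CPM with a median of 56.1 CPM, which fell entirely within the WT range. The fitted log2 fold change was -0.09 with a standard error of 0.56 (95% interval -1.30 to 1.13), while the difference of the mean log2 CPM was 0.26 in the opposite direction (exact permutation p = 0.749). No direction can be given for Ern1.

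Eif2ak3, the gene of PERK, was the least abundant of the 10. Its lowest, median and highest values were 0, 9.29 and 29.8 CPM in WT samples and 1.43, 15.6 and 20.2 CPM in Pon2-/- samples. WT replicate 1 held 0 counts of 23740472, which allows up to 0.126 CPM from counting error alone, whereas the other 5 WT samples had at least 3.75 CPM. The log2 fold change was 0.13 with a standard error of 1.14 (95% interval -2.33 to 2.59; exact permutation p = 0.645), and it was -0.13 without WT replicate 1, 1.09 by limma voom and 0.82 with the replicate number as a block.

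Atf6, the sensor that is itself a transcription factor, was at 20.7, 23.3 and 57.1 CPM (lowest, median and highest) in WT samples and at 19.3, 33.3 and 53.1 CPM in Pon2-/- samples. Most WT samples lay between 20.7 and 24.2 CPM, and replicates 2 and 6 were above 50 CPM. For Atf6, the log2 fold change was 0.05 with a standard error of 0.42 (95% interval -0.86 to 0.96; exact permutation p = 0.716).

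Of the transcription factors, Xbp1 and Ddit3 had larger fitted fold changes than Atf4. Xbp1 encodes the factor of the IRE1α route. WT samples had 270, 383 and 601 CPM (lowest, median and highest), and Pon2-/- samples had 145, 289 and 387 CPM. Pon2-/- replicates 1, 2 and 5 lay below every WT sample, WT replicates 2, 5 and 6 lay above every Pon2-/- sample, and the other 6 samples were mixed. The means were 415 ± 146 CPM (SD, n = 6) and 270.1 ± 93.5 CPM (SD, n = 6), a log2 fold change of -0.62 with a standard error of 0.27 and a 95% interval of -1.21 to -0.03. The unadjusted p was 0.0394 by edgeR with an adjusted p of 1.00, and the exact permutation p was 0.0736.

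XBP1 is also the factor of secreting plasma cells, and Pon2-/- replicate 3 stood apart by genes of such cells. That sample had the highest Xbp1 level of its genotype, 387 CPM, beside 329 CPM in replicate 6 and 324 CPM in replicate 4. Without replicate 3, the log2 fold change was -0.76, with an adjusted p of 0.9998 by edgeR. The difference of the mean log2 CPM was then -0.75 (exact permutation p = 0.0476, unadjusted). The part of the plasma cell genes in the level of Xbp1 was not tested. In a bulk sample, fewer cells with a transcript and less transcript per cell cannot be told apart. Without WT replicate 2, 5 or 6 or Pon2-/- replicate 1, 2 or 5, the unadjusted p of edgeR rose above 0.05, up to 0.102.

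Ddit3 encodes CHOP, the end point of the PERK route. WT samples were close together, with 55.0, 75.6 and 89.7 CPM as lowest, median and highest value. Pon2-/- samples ranged from 7.35 to 96.8 CPM with a median of 40.6 CPM, a 13.2-fold range. Of the Pon2-/- samples, 5 of 6 lay below every WT sample, and replicate 2 lay above them all. The standard deviation of log2 CPM was 0.25 in WT and 1.21 in Pon2-/- samples, and this difference in spread was not tested.

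The means of Ddit3 were 73.0 ± 12.4 CPM (SD, n = 6) and 43.7 ± 29.2 CPM (SD, n = 6). The log2 fold change was -0.74 with a standard error of 0.44 (95% interval -1.68 to 0.20), with an unadjusted p of 0.114 by edgeR. The difference of the mean log2 CPM was -1.06, with an exact permutation p of 0.0238 that became 0.746 when adjusted over all tested genes. Without Pon2-/- replicate 2, the only sample of its genotype not below every WT sample, the log2 fold change was -1.14. Without Pon2-/- replicate 4, the lowest sample, the log2 fold change was -0.52. The exact permutation p was 0.0563 to 0.0649 without WT replicate 2, 4, 5 or 6. Exons of Ddit3 share 68 of 1713 bases with Mars on the opposite strand, which held 16070 counts beside 12986 of Ddit3.

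Atf4, the factor between PERK and CHOP, is regulated mainly at translation. Its mRNA was at 114, 126 and 154 CPM (lowest, median and highest) in WT samples and at 96.4, 118 and 216 CPM in Pon2-/- samples. The Pon2-/- samples reached beyond the WT range on both sides, with 2 below it and 2 above. The log2 fold change was 0.09 with a standard error of 0.21 (95% interval -0.35 to 0.54; exact permutation p = 0.846). It turned to -0.09 without Pon2-/- replicate 1.

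**Figure D2:**
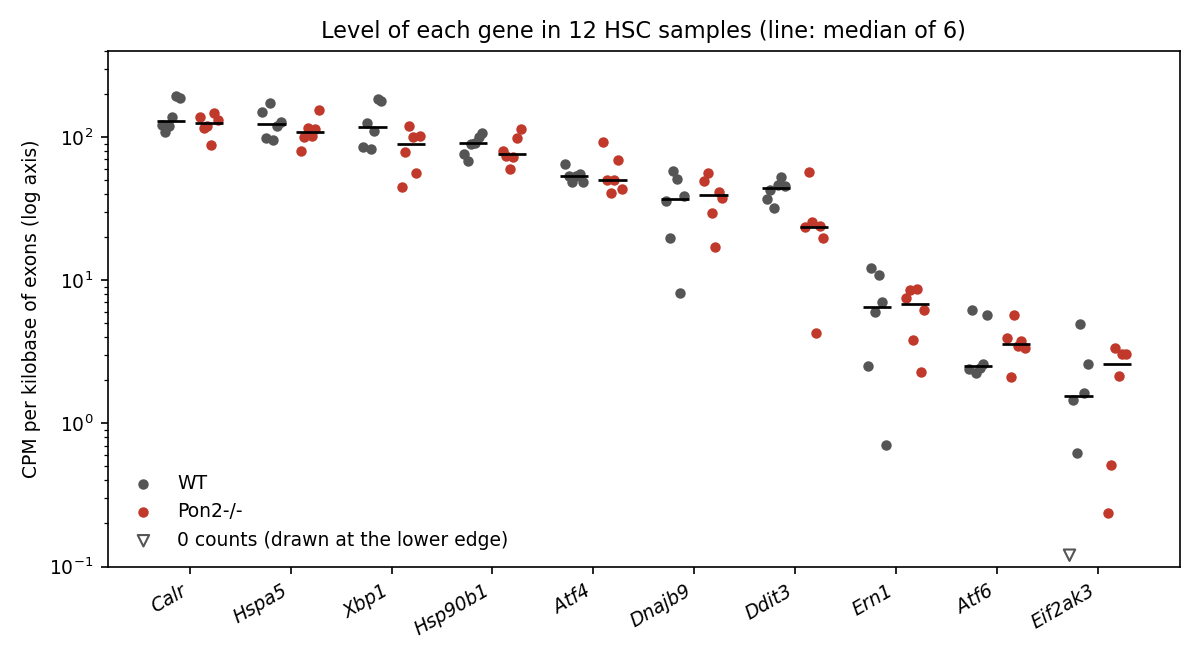
Level of the 10 genes in each of the 12 samples, in CPM per kilobase of exons on a logarithmic axis, with points for samples (grey WT, red Pon2-/-) and lines for the medians of 6. The genes are ordered by their level from Calr to Eif2ak3, and the open triangle marks the WT sample with 0 counts of Eif2ak3.

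Levels were then compared between the genes, per kilobase of exons, since longer transcripts collect more counts. Calr had the highest level with a mean of 134 ± 30.5 CPM per kilobase (SD, n = 12), followed by Hspa5 with 119 ± 27.5, Xbp1 with 106 ± 42.9 and Hsp90b1 with 85.6 ± 16.6 CPM per kilobase. Neighbours among these 4 genes did not differ beyond their spread, with exact sign-flip permutation tests within samples at p = 0.191 for Calr and Hspa5, 0.185 for Hspa5 and Xbp1 and 0.245 for Xbp1 and Hsp90b1. The place of Xbp1 differed by genotype. Its mean log2 CPM per kilobase was 6.93 beside 6.45 for Hsp90b1 in WT samples and 6.30 beside 6.34 in Pon2-/- samples, a difference in order that was not tested.

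Atf4 followed with 55.8 ± 13.9 CPM per kilobase, below Hsp90b1 in 11 of 12 samples (exact p = 0.000977, adjusted over the 9 comparisons of neighbours 0.00439). Dnajb9 had 36.8 ± 15.8 CPM per kilobase, below Atf4 in 10 of 12 samples (exact p = 0.00635, adjusted 0.0143). Ddit3 stood at 34.1 ± 15.4 CPM per kilobase and did not differ from Dnajb9 beyond the spread when all 12 samples were pooled (exact p = 0.667). The order of this pair was opposite in the genotypes, with mean log2 CPM per kilobase of 5.40 for Ddit3 and 4.88 for Dnajb9 in WT samples and of 4.34 and 5.17 in Pon2-/- samples, which was not tested.

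The largest step lay between the transcription factors and the sensors. Ern1 had 6.34 ± 3.49 CPM per kilobase, 2.52 lower than Ddit3 on the log2 scale in the mean and lower in 11 of 12 samples (exact p = 0.000977, adjusted 0.00439). Its mean log2 CPM per kilobase was 2.22 in WT and 2.48 in Pon2-/- samples, so that the step from Ddit3 was smaller in Pon2-/- samples. Atf6 had 3.66 ± 1.48 CPM per kilobase and did not differ from Ern1 beyond the spread (exact p = 0.192). Eif2ak3 was last with 1.97 ± 1.502 CPM per kilobase, below Atf6 in 11 of 12 samples (exact p = 0.00635, adjusted 0.0143). With the length of the longest transcript in place of all exons, Xbp1 came before Hspa5 and Ddit3 before Dnajb9, whereas the step from Ddit3 to Ern1 was 3.11 on the log2 scale.

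Together the 10 genes took up 0.181 to 0.249% of all counts in WT samples and 0.156 to 0.212% in Pon2-/- samples. The sums were 2112 ± 256 CPM (SD, n = 6) and 1800 ± 194 CPM (SD, n = 6). These ranges overlapped, and a few abundant genes set them, so they are given without a test.

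The spread between samples of 1 genotype differed widely among the 10 genes. The pooled standard deviation of log2 CPM within genotypes was 0.29 for Hsp90b1, 0.31 for Calr, 0.32 for Hspa5 and 0.33 for Atf4. Between 5.24 and 7.76% of the tested genes varied less than these 4 genes, and the median over all tested genes was 0.994. The tested genes were then split by mean level into 4 bands of 2962 genes each, because the median standard deviation fell from 2.76 in the lowest to 0.45 in the highest band. Within the highest band, Hsp90b1 varied more than 17.2%, Calr more than 20.7%, Hspa5 more than 22.8% and Atf4 more than 25.0% of the genes. The standard deviation of Atf4 was 0.16 in WT and 0.45 in Pon2-/- samples, a difference that was not tested.

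Dnajb9 departed from the chaperones whose work it assists. Its standard deviation was 0.87, more than that of 95.7% of the genes in the same band. That band ran from 6.14 to 14.9 in mean log2 CPM, and Dnajb9, with samples between 4.37 and 7.21, stood at its lower end. The standard deviation of Dnajb9 was 1.06 in WT, with replicate 5 lowest, and 0.62 in Pon2-/- samples. Xbp1 had 0.53, more than 65.2% of that band. In the next band, Atf6 had 0.58, Ddit3 0.87 and Ern1 1.22, more than 18.0, 58.2 and 85.4% of its genes. Eif2ak3, in the band below, had 2.33, more than 68.5% of the genes there. Counting error was much smaller, with 0.015 on the log2 scale for Hspa5 and 0.11 for Eif2ak3 at their median counts. Intervals and floors from counts cover counting error alone, as the reads carry no molecular identifiers. Each mouse gave a single sample. The spread therefore cannot tell differences between mice from those that arise in sorting and library preparation.

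**Figure D3:**
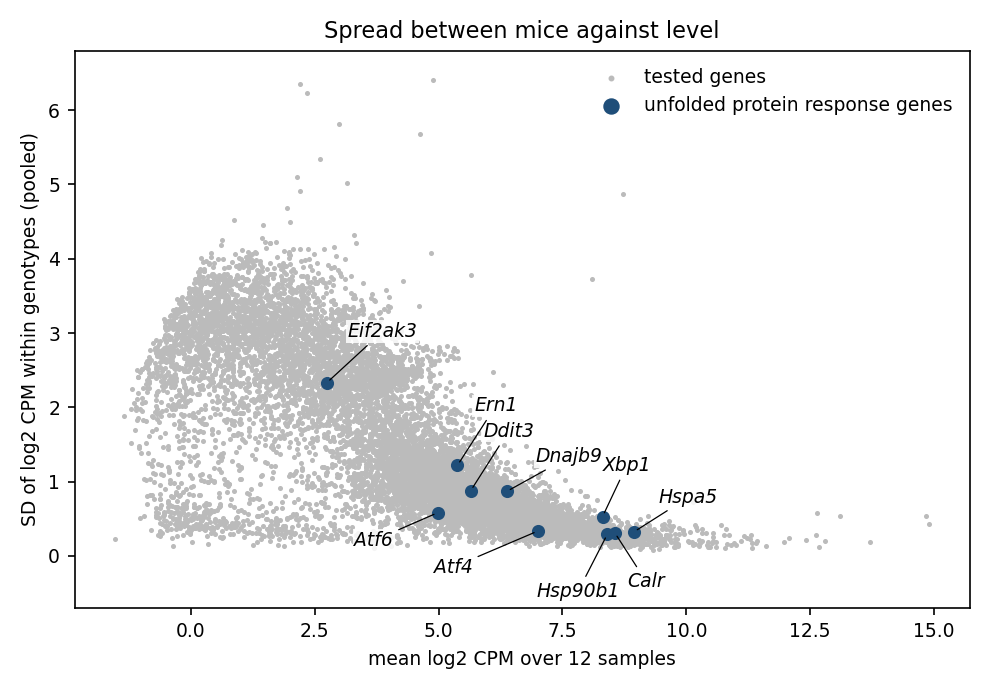
Standard deviation of log2 CPM within genotypes (vertical axis) against the mean log2 CPM over 12 samples (horizontal axis) for the 11848 tested genes (grey) and the 10 UPR genes (blue). The chaperones and Atf4 lie low at high levels, Dnajb9 lies above most genes of its level, and Eif2ak3 has a standard deviation of 2.33.

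Whether the 10 genes were high and low in the same mice was examined for all 45 pairs over the 12 samples, with permutation p-values from 100000 resamples. Of these, 25 had a positive Pearson r, the median r was 0.015, and 3 had a permutation p below 0.05 before adjustment. None passed after adjustment over the 45 pairs, where the smallest adjusted permutation p was 0.446 for Pearson and 0.287 for Spearman correlation.

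The highest value was that of the chaperones Hsp90b1 and Calr, with r = 0.67 (permutation p = 0.0163, adjusted 0.446) and rho = 0.76 (permutation p = 0.00637, adjusted 0.287). Without the 2 samples farthest from the median of Hsp90b1, r was 0.85, and with each genotype centred on its mean it was 0.66. Hspa5 had r = 0.11 with Calr. The lowest was that of Xbp1 and Atf4, with r = -0.66 (permutation p = 0.0198, adjusted 0.446) and rho = -0.39 (permutation p = 0.210, adjusted 0.817), and r = -0.57 without the 2 farthest samples. With the genotypes centred, r of this pair was -0.75 (permutation p = 0.00301, adjusted 0.135).

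Dnajb9, a target of XBP1, ran against the total Xbp1 mRNA, with r = -0.59 (permutation p = 0.0478, adjusted 0.717) and rho = -0.61 (permutation p = 0.0400, adjusted 0.6004). It was -0.45 without the 2 farthest samples and -0.39 without WT replicate 5, so that the relation rests on few samples. Between a sensor and a chaperone, Hspa5 had r = -0.39 with Ern1 (permutation p = 0.209, adjusted 0.888) but rho = -0.66 (permutation p = 0.0243, adjusted 0.547).

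**Figure D4:**
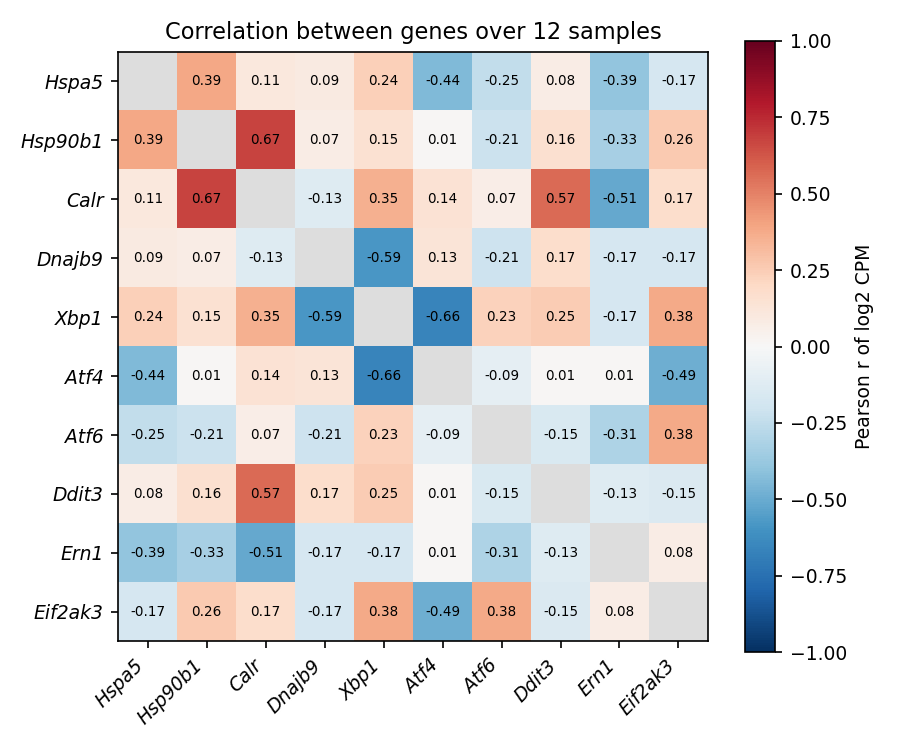
Pearson correlation of log2 CPM between the 10 genes over the 12 samples, in red where positive and in blue where negative. The pairs range from -0.66 for Xbp1 and Atf4 to 0.67 for Hsp90b1 and Calr, and no block of genes with high values stands out.

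Genes outside the 10 were then ranked by their likeness to Hspa5. The 5 tested genes with the highest Pearson r to Hspa5 over the 12 samples were Fam126b (0.82), Rbm38 (0.81), St13 (0.81), Pdcl3 (0.81) and Bin2 (0.81). St13 encodes a co-chaperone of cytosolic HSP70, and Rbm38 an RNA-binding protein. The highest r of Hspa5 among the UPR genes was 0.39 with Hsp90b1. The 5 genes were picked as the highest of 11848 tested genes over only 12 samples, so high values of r can arise by chance alone. The value of 0.39 is the highest among far fewer genes and cannot be set beside them. What r chance gives in such a ranking was not tested, so these values are a description only.

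Finally, 88 further genes of the ER and of the 3 routes were read from the same test, in 5 lists of known roles. Of these, 81 were tested, and 0 were called by edgeR (0.203% of all tested genes were). DESeq2 and limma voom called 0 of the list genes too, beside 304 of 25444 fitted genes by DESeq2 and 23 of 11848 by voom. Of the 81, 3 had an unadjusted p below 0.05 by edgeR (3.13% of all tested genes). The median log2 fold change of the 81 genes was -0.01, as for all tested genes, with 40 higher and 41 lower in Pon2-/- samples. The samples of both genotypes overlapped for all 81, beside 0.633% of all tested genes without overlap.

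Of the 18 ER folding genes, which hold protein disulphide isomerases, lectins and co-chaperones, 18 were tested, with 8 higher, 10 lower and a median log2 fold change of -0.09. The mean levels ran from 8.89 CPM for Ero1lb to 571 CPM for the disulphide isomerase Pdia3. The smallest unadjusted p-values belonged to Creld2, a secreted ER stress protein whose promoter holds the element shown above. It was at 126 ± 28.9 CPM in WT and at 86.6 ± 32.3 CPM in Pon2-/- samples (SD, n = 6 each), with a log2 fold change of -0.54 and a standard error of 0.29. Uggt1, which marks misfolded glycoproteins for another round of folding, was at 42.0 ± 13.5 and 71.8 ± 34.5 CPM, with a log2 fold change of 0.77 and a standard error of 0.42. Neither passed the test.

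The 18 genes of ER-associated degradation, which export misfolded proteins to the proteasome, were all tested, with 8 higher, 10 lower and a median log2 fold change of -0.02. Edem2, a mannosidase-like protein of this route, was at 182 ± 28.7 CPM in WT and at 130.1 ± 53.6 CPM in Pon2-/- samples, with a log2 fold change of -0.48 and a standard error of 0.24. Its relative Edem3 was at 16.7 ± 13.2 and 2.96 ± 3.12 CPM, with a log2 fold change of -2.49 and a standard error of 1.58. Edem3 had counts in 5 of 6 WT and 4 of 6 Pon2-/- samples, and its 95% interval ran from -5.89 to 0.90.

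Of the 18 genes of ER translocation, which bring nascent proteins into the ER, 17 were tested, with 6 higher, 11 lower and a median log2 fold change of -0.14. Spcs3, a subunit of the signal peptidase, was at 69.5 ± 33.0 CPM in WT and at 39.5 ± 12.5 CPM in Pon2-/- samples, with a log2 fold change of -0.82, a standard error of 0.36 and an unadjusted p of 0.0385 by edgeR. Srpr, a receptor of the signal recognition particle, was at 157 ± 46.4 and 113 ± 26.2 CPM, with a log2 fold change of -0.47 and a standard error of 0.22. The adjusted p was 1.00 for both.

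The ATF4 and CHOP branch had the highest median, 0.21 on the log2 scale, with 9 of 14 tested genes higher and 5 lower. The medians of the standard errors, 0.61 here and 0.34 over the 81 genes, show how much less precisely this list was measured. Phgdh, the first enzyme of serine synthesis, was at 231 ± 48.6 CPM in WT and at 323 ± 96.9 CPM in Pon2-/- samples, with a log2 fold change of 0.48, a standard error of 0.21 and an unadjusted p of 0.0395 by edgeR. Asns, the asparagine synthetase, was at 34.8 ± 24.9 and 73.1 ± 36.3 CPM, with a log2 fold change of 1.07 and a standard error of 0.53. The adjusted p was 1.00 for both. Of the stress-induced members, Atf3 had 0 counts in all 12 samples, and Chac1 (335 counts), Slc7a11 (738 counts) and Bbc3 (447 counts) did not reach the count minimum in enough samples to be tested.

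Of the 16 genes that control the sensors, 14 were tested, with 9 higher, 5 lower and a median log2 fold change of 0.11. Mbtps1, the site-1 protease that cuts ATF6 in the Golgi, was at 45.7 ± 18.8 CPM in WT and at 87.4 ± 51.4 CPM in Pon2-/- samples, with a log2 fold change of 0.93, a standard error of 0.38 and an unadjusted p of 0.0279 by edgeR. Traf2, the adaptor that links IRE1α to JNK signalling, was at 84.5 ± 31.2 and 43.2 ± 38.3 CPM, with a log2 fold change of -0.97 and a standard error of 0.52. The adjusted p was 1.00 for both. Ern2, the second IRE1 gene, had 1 count in all samples together.

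**Figure D5:**
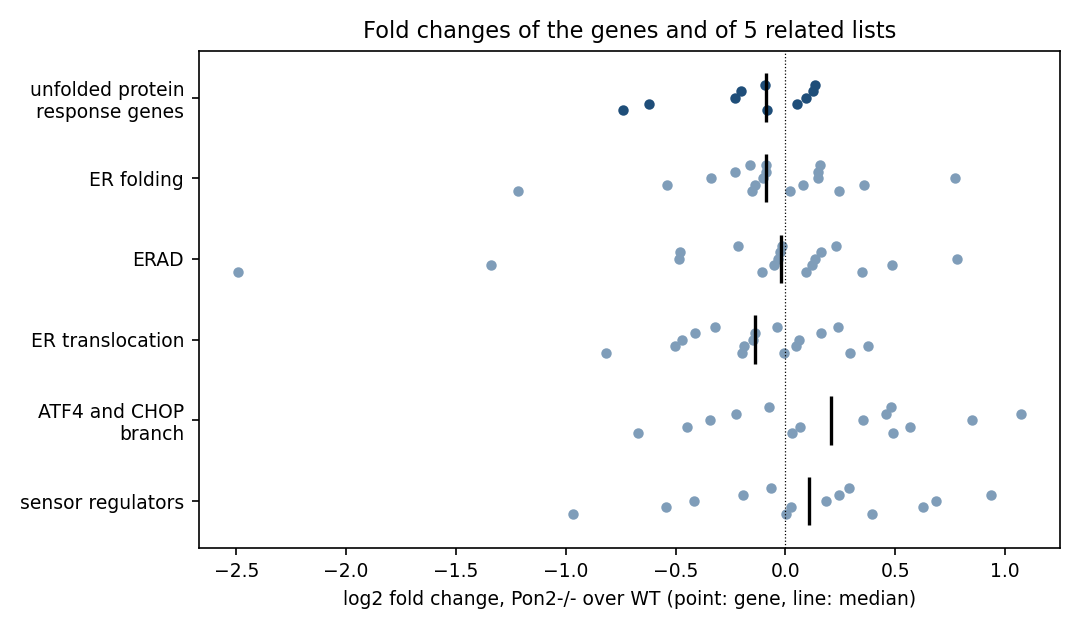
Log2 fold change between Pon2-/- and WT samples of the 10 UPR genes (dark points) and of the tested genes of 5 related lists (light points), with black lines at the medians. The medians lie between -0.14 for ER translocation and 0.21 for the ATF4 and CHOP branch, and the lowest point is Edem3 at -2.49.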

How the data were processed

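HSCs of 6 WT and 6 Pon2-/- mice were sequenced by Smart-seq2. The authors trimmed reads with Trimmomatic (0.36), mapped them with STAR (2.5.3a) to GRCm38.p5 and deposited unnormalised counts per gene of each mouse. The column used was taken as STAR's unstranded count. Names and exon lengths came from GENCODE M21 (259 of 49585 IDs had no match), promoters from RefSeq.

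The test was edgeR 4.0.16 (R 4.3.3; TMM, filterByExpr, quasi-likelihood F-test, genotype alone), tested on simulated data. Standard errors were taken from its F statistic. The coefficient of biological variation was 99.2%. CPM were scaled by TMM, and log2 CPM used a prior count of 2. Exact permutation tests were two-sided over all relabellings (smallest p 0.00216). Copies of the 10 genes were sought with minimap2 2.31-r1302 (at least 90% identity), which found Calr-ps (14 counts) and Gm6568, a copy of Dnajb9 (1 count).

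All 10 genes are named. Other genes are Pon2, the 5 most like Hspa5, and of each list the 2 with the smallest p, unless any was called. Genes and lists were chosen with earlier results of these data known. Alternatives were DESeq2 1.42.0, limma 3.58.1 (voom), other filters, scalings and prior counts, a replicate block, and leaving out each mouse.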

Additional observations from a re-analysis of the deposited data

Results flagged for a closer look

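In 1 of 20 groups of 6 samples (the 10 UPR genes in each genotype), 1 sample stood far from the others by Dixon's criterion, as chance alone gives for about 1 group in 20. This was Eif2ak3 in WT replicate 1, with 0 CPM (0 counts), while the other WT samples had 3.75 to 29.8 CPM. On the log2 scale, the gap to the next sample was 0.635 of the range of the group, beside a critical value of 0.625.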

How the results depend on the processing

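Of the 10 UPR genes, 0 were called in every fit, with adjusted p between 0.283 and 1.00 for Xbp1 and between 0.483 and 1.00 for Ddit3. Of 11848 genes, 24 were called in the main fit and 5 with the replicate block. Of 25444 genes, 8 were called without a filter on low counts, 304 by DESeq2 and 940 by DESeq2 without Cook's cutoff. The fits of 25444 genes include genes with low counts that the main fit left out, so these numbers are not alike in what was tested. The cause of the differences was not tested. The labels do not state whether the replicate numbers pair the mice. Deviations of same-numbered samples from their genotype means correlated with r = 0.000932 to 0.0430, and 1 of 6 samples matched its own number best. With the wide spread between samples, such values cannot decide whether the mice were paired. At an unadjusted p below 0.05 stood 2 UPR genes by voom (Xbp1 and Ddit3), and 0 to 1 when each mouse was left out in turn. The shares of all tested genes at this p in these fits are not given, so the counts cannot be set against them. The genotypes did not overlap for 0 to 1 UPR genes on leaving out a mouse, Ddit3 without Pon2-/- replicate 2. This follows from the other 5 Pon2-/- samples, which all lay below every WT sample. The share of all tested genes without overlap is not given for fewer mice, so this count has no background. The log2 fold change of Ern1 turned to 0.22 by voom and to 0.16 with the replicate block. That of Eif2ak3, 0.13, became 1.09 by voom and 0.82 with the replicate block. With each mouse left out in turn, the log2 fold change ran from -0.12 to 0.28 for Atf6, from -0.13 to 0.71 for Eif2ak3, from -0.33 to 0.18 for Ern1, from -0.084 to 0.33 for Dnajb9 and from -0.091 to 0.17 for Atf4. Likewise, the difference of mean log2 CPM ran from -0.33 to 1.29 for Eif2ak3, from -0.086 to 0.50 for Dnajb9, from -0.28 to 0.54 for Ern1, from -0.11 to 0.12 for Atf4 and from -0.0067 to 0.31 for Atf6. Per kilobase of the longest transcript, the log2 difference was -0.16 between Hspa5 and Xbp1 and -0.62 between Dnajb9 and Ddit3. The direction of Hspa5, Hsp90b1, Calr, Xbp1 and Ddit3 held in all 20 fits. For each of the 10 genes, the counting error at the median count (0.015 to 0.11 on the log2 scale) was below the spread between samples within genotypes (0.29 to 2.33).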
